A study of Mus musculus with 26 samples.

Results

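The 38 genes described here act in G2 and in mitosis, the steps from mitotic entry to the splitting of the daughter cells. They were chosen by name, with the kinesin family left aside, although Cenpe, which is listed among them, is itself a kinesin-type motor. All 38 were measured, among 23152 genes in all. Each gene's value is the mean of the deposited log2 values over the probe sets that name that gene alone, and the members had 650 such probe sets, between 7 and 44 each with a median of 15.5.

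The study put genes into mouse neural stem cells, taken at embryonic day 14.5 from wild-type C57BL6 embryos, by lentivirus, and read total RNA on an Affymetrix array. In the pool set, cells overexpressed eGFP as the control, MYBtr, MYBQKI5, MYBQKI6 or QKItr, each in pools 1, 2 and 3. eGFP had 2 arrays per pool, which were averaged, so the 18 arrays gave 15 columns, 1 per construct and pool. In the suppression set of 8 arrays, all cells overexpressed MYBQKI6, and 5 samples had Qk suppressed while 3 had LacZ, a bacterial gene absent from mouse cells, suppressed as the control. Neither the meaning of tr nor the promoter that drove the constructs is given in the labels. Titles of the suppressed samples carry a last number of 1, 2 or 3 in both arms. The labels do not say that this number pairs the arms, but it was taken here to do so. In the Qk arm the titles also carry a leading 5, 6 or 9 whose meaning is not given. The Qk samples are called here Qk 5_2, Qk 6_1, Qk 6_3, Qk 9_1 and Qk 9_3, and the controls LacZ 1, LacZ 2 and LacZ 3. Pools and numbers are not said to be different animals or cultures, so each p-value reflects only how these samples vary, and that variation may be technical.

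Entry into mitosis is driven by Cdk1 bound to cyclins A and B, once CDC25 phosphatases remove its inhibitory phosphates and the kinases Plk1 and Aurora A add to the drive. Kinetochores then attach chromosomes to the spindle under the watch of the checkpoint kinases, and the anaphase-promoting complex with Cdc20 and Ube2c marks securin and cyclins for destruction so that chromatids separate. Genes of this group are transcribed together late in the cycle, by B-MYB (Mybl2) with the MuvB complex and by Foxm1, through a promoter element called the cell cycle genes homology region, often beside CCAAT boxes bound by NF-Y. Neural stem cells carry these transcripts while they divide and lose them as they leave the cycle. MYB, the factor joined to QKI in the constructs, is a relative of B-MYB, and QKI, encoded by Qk in the mouse, is an RNA-binding protein.

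The promoters of 8 members are shown because these genes carry the results that follow. Among them are 4 members that followed the pools (Cdk1, Mki67, Ube2c and Cdc20) and 2 that did not (Ccnb2 and Pttg1). Another 2, Cks2 and Cdc25b, were called by construct in opposite directions, only in the fit given below that takes pool as a block. Each sequence is the 150 bases before the transcription start, from RefSeq on GRCm38.p6, read 5′ to 3′ on the strand of the gene. They are at chr10:69352913-69353062 on the minus strand for Cdk1, chr7:135716380-135716529 on the minus strand for Mki67 and chr2:164769779-164769928 on the plus strand for Ube2c. Cdc20 lies at chr4:118437344-118437493 (minus), Ccnb2 at chr9:70421555-70421704 (minus) and Pttg1 at chr11:43425982-43426131 (minus). Cks2 lies at chr13:51645082-51645231 (plus) and Cdc25b at chr2:131186798-131186947 (plus). Capitals mark TTTGAA, the variant TTCGAA, or the box CCAAT, found on either strand, and a match on the opposite strand appears as its reverse complement.
Cdk1: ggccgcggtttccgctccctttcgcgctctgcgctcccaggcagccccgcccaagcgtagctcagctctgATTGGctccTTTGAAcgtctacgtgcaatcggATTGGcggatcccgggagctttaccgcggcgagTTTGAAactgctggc
Mki67: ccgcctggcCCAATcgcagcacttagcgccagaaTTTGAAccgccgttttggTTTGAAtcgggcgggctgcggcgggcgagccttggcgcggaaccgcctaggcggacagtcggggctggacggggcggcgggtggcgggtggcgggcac
Ube2c: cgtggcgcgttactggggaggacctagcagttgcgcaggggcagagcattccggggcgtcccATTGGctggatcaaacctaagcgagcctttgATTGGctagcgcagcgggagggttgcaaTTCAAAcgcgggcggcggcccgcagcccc
Cdc20: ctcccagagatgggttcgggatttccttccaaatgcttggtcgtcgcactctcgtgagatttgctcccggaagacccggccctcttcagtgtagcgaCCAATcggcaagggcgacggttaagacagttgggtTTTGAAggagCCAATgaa
Ccnb2: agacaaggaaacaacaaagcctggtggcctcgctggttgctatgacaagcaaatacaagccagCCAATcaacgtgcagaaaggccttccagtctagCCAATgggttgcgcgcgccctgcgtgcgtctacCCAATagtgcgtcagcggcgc
Pttg1: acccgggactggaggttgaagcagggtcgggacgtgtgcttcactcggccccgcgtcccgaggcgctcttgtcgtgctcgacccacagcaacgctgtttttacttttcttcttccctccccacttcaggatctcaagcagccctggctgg
Cks2: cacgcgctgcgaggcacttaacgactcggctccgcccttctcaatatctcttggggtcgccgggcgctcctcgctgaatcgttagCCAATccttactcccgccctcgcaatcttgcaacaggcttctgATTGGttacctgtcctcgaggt
Cdc25b: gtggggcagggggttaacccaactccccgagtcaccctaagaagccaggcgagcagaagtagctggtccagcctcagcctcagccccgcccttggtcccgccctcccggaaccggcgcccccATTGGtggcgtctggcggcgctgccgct
In the shown window Cdk1 and Mki67 had 2 matches to TTTGAA each, Cdk1 at 71 and 15 bases before the start and Mki67 at 116 and 98, and Cdc20 and Ube2c had 1 each, at 18 and 29. Cks2 had CCAAT at 65 and 22 bases before the start with no TTTGAA or TTCGAA, and Pttg1 had none of these letters. Ccnb2 had CCAAT at 87, 54 and 21 bases before the start and Cdc25b at 28, both with no TTTGAA or TTCGAA in the shown window.

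RefSeq promoters of 300 bases (250 before and 50 after the start) were matched for 31 of the 38 members, giving 33 promoters because Ect2 and Prc1 have 2 each. TTTGAA, searched on both strands as all motifs were, stood in 24 of the 33 (72.7%), against 17.9% of all 32851 promoters of the same length. TTCGAA stood in 4 (12.1% against 1.56%), and CCAAT in 27 (81.8% against 37.4%). AACNG, the core letters of MYB recognition, was in 31 (93.9%), but it is short and was in 80.3% of all promoters. Of the 31 genes, 7 held neither TTTGAA nor TTCGAA in this window (Birc5, Cenpe, Cks2, Nek2, Nuf2, Nusap1 and Pttg1). Their median difference between pools 3 and 1, described with the pools next, was 2.48 (0.33 to 3.38), against 2.38 (-0.54 to 4.71) for the 24 genes with either. A match is a description of letters and not of a bound site.

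On the arrays, the members differed mostly by pool. Averaged over the 5 constructs, 34 of the 38 were at least 2-fold higher in pool 3 than in pool 1, 25 at least 4-fold and 12 at least 8-fold, while 2.42% of all genes were at least 2-fold higher. The median member difference was 2.43 on the log2 scale, against -0.079 over all genes. Pool 2 lay between, with a median difference of 1.19 above pool 1, 23 members at least 2-fold higher (1.39% of all genes) and pool 3 a further 1.17 above it. In 36 members all 5 pool 3 columns were above all 5 pool 1 columns (9.56% of all genes), and in 25 the 3 pools stood in rising order with no overlap (0.76% of all genes). The labels do not say how the pools differ, so these are descriptions without a test, and in bulk RNA fewer dividing cells and less of each transcript per cell cannot be told apart.

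**Figure D1:**
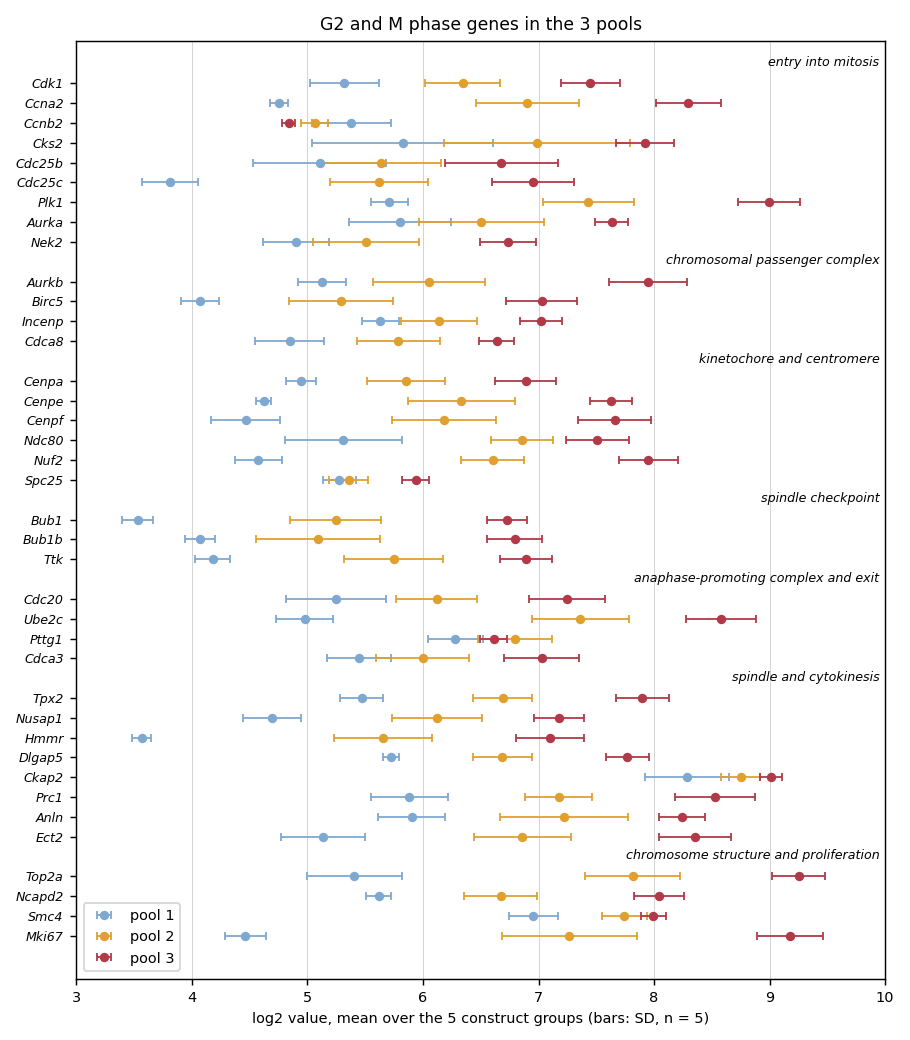
Mean log2 value of each of the 38 members in pools 1, 2 and 3 (points, mean over 5 constructs; bars, SD), grouped by role. For 34 members pool 3 is at least 2-fold above pool 1; Ccnb2 runs the other way, and Pttg1, Spc25 and Ckap2 differ by less than 2-fold.

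Among the genes of mitotic entry, 8 of 9 were at least 2-fold higher in pool 3, with a median difference of 2.10. Cdk1, the mitotic kinase, had a mean log2 value of 5.32 ± 0.30 (SD, n = 5 columns) in pool 1, 6.34 ± 0.33 in pool 2 and 7.45 ± 0.25 in pool 3, a 4.37-fold difference. Ccna2, which encodes cyclin A2, went from 4.75 ± 0.08 over 6.90 ± 0.44 to 8.30 ± 0.28, an 11.7-fold difference. Plk1, which encodes Polo-like kinase, was at 5.71 ± 0.16, 7.43 ± 0.39 and 9.00 ± 0.27. For these 3 genes no column of one pool overlapped another pool. Cdc25c, a phosphatase that activates Cdk1, differed by 3.14, Cdc25b, a phosphatase acting earlier in entry, by 1.57, and Cks2, a small Cdk-binding subunit, by 2.10. Aurka, the kinase of spindle poles, and Nek2, a centrosome kinase, both differed by 1.83.

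The exception in this group was Ccnb2, one of the B-type cyclins, with 5.38 ± 0.34 in pool 1, 5.06 ± 0.12 in pool 2 and 4.84 ± 0.06 in pool 3. It was lower in pool 3 than in pool 1 with all 5 constructs, by 0.54 on the mean, and only 2 of its 10 probe sets were higher in pool 3. Its promoter carries the same CCAAT and TTTGAA letters as other members. The TTTGAA matches lie 167 bases before and 5 after the start, outside the 150 bases shown. Ccnb1, the other B-type cyclin of the listed pathway genes, was not analysed here.

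All 4 genes of the chromosomal passenger complex, which corrects faulty attachments and guides cytokinesis, were at least 2-fold higher in pool 3. Birc5, which encodes survivin, was at 4.07 ± 0.16, 5.29 ± 0.45 and 7.03 ± 0.31 in pools 1, 2 and 3, a 7.78-fold difference. Its kinase Aurkb differed by 2.82, its scaffold Incenp by 1.39 and Cdca8, which encodes borealin, by 1.79.

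At the kinetochore and centromere 5 of 6 passed 2-fold. Nuf2, a subunit of the NDC80 complex that holds microtubules, was at 4.58 ± 0.20, 6.60 ± 0.27 and 7.95 ± 0.26, while its partner Ndc80 differed by 2.20. Spc25, another subunit of the same complex, was at 5.28 ± 0.14, 5.36 ± 0.17 and 5.94 ± 0.11, so that it was 1.58-fold higher in pool 3 and its pools 1 and 2 overlapped. Cenpf, a large kinetochore protein, differed by 3.19, Cenpe, the motor that brings chromosomes to the spindle equator, by 3.01 and Cenpa, the centromeric histone, by 1.95.

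The 3 spindle checkpoint genes all passed 2-fold. Bub1 differed by 3.20, Bub1b, which encodes BubR1, by 2.72 and Ttk, which encodes the kinase Mps1, by 2.71. Bub1 lay below the 25th percentile of its array in all 5 pool 1 columns (3.53 ± 0.13), as Hmmr did, and Cdc25c did in 4 of 5, so their low values may lie near the floor of the array. The other members stayed above that level in all pool 1 columns.

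Around the anaphase-promoting complex 3 of 4 passed 2-fold. Ube2c, the ubiquitin-conjugating enzyme that serves the complex, was at 4.98 ± 0.25, 7.36 ± 0.42 and 8.58 ± 0.30, a 12.2-fold difference. Cdc20, its activator, was at 5.25 ± 0.43, 6.12 ± 0.35 and 7.25 ± 0.33, and Cdca3, which promotes destruction of Wee1, differed by 1.58. Pttg1, which encodes securin, the brake on separase, was at 6.28 ± 0.24, 6.80 ± 0.32 and 6.61 ± 0.12. It thus peaked in pool 2, with pool 3 only 1.26-fold above pool 1 and overlapping it.

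Spindle and cytokinesis genes passed 2-fold in 7 of 8 cases. Hmmr, a spindle-binding protein, differed by 3.53, Ect2, the exchange factor that starts the contractile ring, by 3.22, Prc1, the bundler of the central spindle, by 2.65 and Anln, the ring scaffold anillin, by 2.34. Nusap1, Tpx2 and Dlgap5, which help build the spindle, differed by 2.48, 2.43 and 2.04. Ckap2, a spindle microtubule protein, differed by 0.72, from 8.29 ± 0.37 to 9.01 ± 0.10.

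The chromosome group held the widest gap between pools. Mki67, the gene of the Ki-67 proliferation antigen, read 4.33, 4.62, 4.47, 4.66 and 4.25 in pool 1 with eGFP, MYBtr, MYBQKI5, MYBQKI6 and QKItr. Its pool 2 values, in the same order, were 6.69, 7.48, 8.13, 6.78 and 7.25. Its pool 3 values were 9.30, 9.10, 8.78, 9.16 and 9.55. The 3 pools were apart by more than their constructs, with means of 4.46 ± 0.18, 7.26 ± 0.58 and 9.18 ± 0.28 and a 26.3-fold difference between pools 3 and 1. Top2a, the topoisomerase that untangles sister chromatids, was 14.4-fold higher in pool 3 (5.41 ± 0.41 against 9.25 ± 0.23). The condensin subunits Ncapd2 and Smc4 differed by 2.43 and 1.04.

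Of the variance of a member over the 15 columns, a median of 93.2% lay between pools and 1.70% between constructs, against 30.7% and 24.1% for the median gene of the array. Both shares are parts of the same total, so a high pool share leaves little for construct. The construct share also averages shifts that change sign between pools, as the MYBQKI5 medians against eGFP did (0.89 in pool 2, -0.40 in pool 3). A low construct share therefore does not show that the constructs did little. At least 80% lay between pools for 33 of 38 members and for 5.46% of all genes. Construct took its highest shares in Pttg1 (26.0%), Cks2 (25.2%), Cdc25b (24.2%) and Ccnb2 (13.6%).

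**Figure D2:**
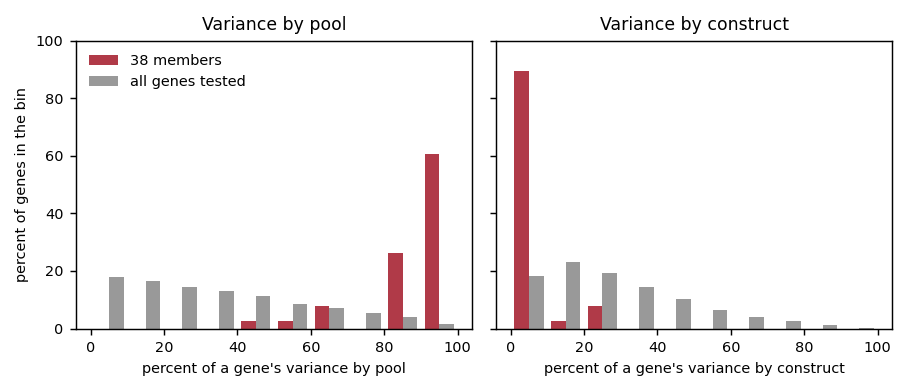
Percent of genes (vertical axis) by the percent of a gene's variance over the 15 columns that lies between pools (left) or between constructs (right), in bins of 10, for the 38 members (red) and all genes tested (grey). The members gather at the high end for pool, with a median of 93.2%, and at the low end for construct, with a median of 1.70%.

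Genes around the members followed the pools to differing degrees. Of 62 other G2 and M genes, 47 were at least 2-fold higher in pool 3, with a median of 1.57, from -0.29 for Zwint to 3.37 for Depdc1a. S phase genes did so in 23 of 43 cases (median 1.22). Among 23 regulators of the program 4 did: E2f8 by 2.66, Foxm1 by 1.66, E2f7 by 1.11 and Rbl1 by 1.07. Mybl2, the B-MYB gene, was 0.90 higher and Mybl1, the A-MYB gene, 0.06 lower. Of 16 brakes on G2 and M, Ccng2 was 1.64 and Chek2 1.11 higher and Gadd45a 1.22 lower in pool 3. None of 10 G1 cyclins and kinases differed by 2-fold in either direction.

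Of 12 neural stem markers, 11 were above the 25th percentile of the array in all pool 1 columns. The same bar was met by 8 of 8 neuron, 5 of 5 oligodendrocyte precursor and 4 of 5 oligodendrocyte markers. It was also met by 3 of 5 astrocyte, 3 of 6 microglia and 5 of 6 vascular and fibroblast markers. This bar therefore does not single out neural stem cells. The mean level of the neural stem markers was 8.25, 8.30 and 8.43 in pools 1, 2 and 3, with none 2-fold apart between pools 1 and 3. The mean level of the members went from 5.17 over 6.41 to 7.53. Markers of other cell types were as close: 0 of 5 oligodendrocyte, 0 of 5 oligodendrocyte precursor, 0 of 6 microglia and 0 of 6 vascular and fibroblast markers differed by 2-fold. Of 5 astrocyte markers Aqp4 was 1.07 higher, and of 8 neuron markers Tubb3 was 1.09 lower in pool 3. Whether these had a part in the pool difference was not tested.

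The study's question was what the constructs do to neural stem cells. Myb checked the labels only as to the presence of MYB: it was 2.62 (SE 0.27, limma adjusted p = 0.00026), 2.37 (SE 0.27, adjusted p = 0.0019) and 2.84 (SE 0.27, adjusted p = 0.00035) above eGFP with MYBtr, MYBQKI5 and MYBQKI6, and 0.24 (SE 0.27, adjusted p = 1.0) with QKItr. It differed by -0.25 for MYBQKI5 against MYBtr, 0.22 for MYBQKI6 against MYBtr and 0.47 for MYBQKI6 against MYBQKI5, none called by limma. Myb therefore does not tell the MYB constructs apart. Qk did not check the labels: it was 0.25 above eGFP with QKItr (SE 0.17, limma adjusted p = 1.0, and 0.99 when pools were blocked), and -0.10 with MYBQKI5 and -0.11 with MYBQKI6 (both adjusted p = 1.0), so the libraries labelled QKItr and the QKI part of the fusions have no check from Qk here. No member passed the limma test (Benjamini-Hochberg over all genes, adjusted p under 0.05) in any of the 9 comparisons between constructs when pools were not blocked, and none had an unadjusted p under 0.05 in any of them. At that unadjusted cut stood 9.44% of all genes for MYBtr, 6.8% for MYBQKI5, 7.82% for MYBQKI6 and 1.56% for QKItr against eGFP. The mean of the MYB constructs had 9.8% against eGFP and 14.1% against QKItr. MYBQKI5 against MYBtr, MYBQKI6 against MYBtr and MYBQKI6 against MYBQKI5 had 3.67%, 2.61% and 1.74%. Without the block the spread between pools stays in the error of the fit, so these counts do not show unchanged members. Over all genes, limma called 1.37% for MYBtr, 0.199% for MYBQKI5, 0.765% for MYBQKI6 and 0% for QKItr against eGFP. The mean of the 3 MYB constructs had 2% called against eGFP and 2.95% against QKItr. Among the MYB constructs 0% were called in each of the 3 comparisons (MYBQKI5 against MYBtr, MYBQKI6 against MYBtr and MYBQKI6 against MYBQKI5).

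The members' median difference from eGFP was 0.22 for MYBtr, 0.17 for MYBQKI5, 0.0098 for MYBQKI6 and 0.15 for QKItr, with 29, 33, 20 and 32 of 38 above 0. Over all genes the medians were -0.014, -0.0066, -0.0049 and -0.0063 in the same order. These comparisons share the eGFP columns. Between the MYB constructs the medians were -0.031 for MYBQKI5 against MYBtr, -0.20 for MYBQKI6 against MYBtr and -0.11 for MYBQKI6 against MYBQKI5. For Mki67, the mean of the MYB constructs was 0.25 above eGFP with a 95% interval of -2.65 to 3.14, so this fit could not tell apart changes of several fold.

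Same-numbered pools deviated together, and with the pool as a block 2 members passed. Cks2, the Cdk subunit, rose with the MYB constructs, and Cdc25b, the phosphatase of early mitotic entry, fell. The block also raised the share of all genes called by limma, to 5.97% for MYBtr, 2.63% for MYBQKI5, 4.39% for MYBQKI6 and 7.07% for the mean of the MYB constructs against eGFP, and to 10.4% for that mean against QKItr. QKItr against eGFP and the 3 comparisons among MYB constructs stayed at 0%. At an unadjusted p under 0.05 stood 1 member for QKItr, where 4.6% of all genes did. For MYBQKI5 against MYBtr, MYBQKI6 against MYBtr and MYBQKI6 against MYBQKI5 it was 0, 0 and 1 member. Of all genes 8.32%, 6.21% and 4.39% stood there in these comparisons. Called members were 1 of 38 for MYBtr, 0 for MYBQKI5, 2 for MYBQKI6 and 2 for each comparison of the mean, shares no larger than or close to those of all genes. Members at an unadjusted p under 0.05 with the block were 7 for MYBtr, 2 for MYBQKI5, 4 for MYBQKI6, 5 for the mean against eGFP and 4 for the mean against QKItr, where 17.2%, 13.5%, 14.6%, 17.4% and 23.5% of all genes were.

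Cks2 read 5.35, 5.86 and 7.57 with eGFP in pools 1, 2 and 3 and 4.72, 6.41 and 7.74 with QKItr. With MYBtr it read 6.60, 7.49 and 8.16, and with MYBQKI5 6.05, 7.59 and 8.06. MYBQKI6 gave 6.41, 7.60 and 8.07. Within each pool all 3 MYB columns were above both eGFP and QKItr, while across pools the groups overlapped. The mean of the MYB constructs was 1.08 above eGFP (SE 0.21, 95% interval 0.63 to 1.52, limma adjusted p = 0.0051 with the block), a 2.11-fold rise, but the same difference had an SE of 0.62 and an adjusted p of 0.71 without it. Against QKItr it was 1.04 higher (SE 0.21, limma adjusted p = 0.0049 with the block, 0.52 without). By construct, limma's blocked differences were 1.16 for MYBtr (adjusted p = 0.014) and 1.10 for MYBQKI6 (adjusted p = 0.024), and 0.97 for MYBQKI5, which missed the threshold (adjusted p = 0.060). All 9 Cks2 probe sets, of which 1 copies the values of another, were higher with the MYB constructs than with eGFP, by 0.11 to 1.59. Without pool 1 its only blocked call was the mean against eGFP (1.11, limma adjusted p = 0.039), and without pool 2 it had none (0.77, adjusted p = 0.18). Without pool 3 its calls stayed and Aurka was called as well (0.95, SE 0.15, limma adjusted p = 0.0047 against eGFP). The 2 eGFP arrays of pool 2 were 6.21 and 5.51, the widest gap for this gene between repeats.

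Cdc25b read 5.86, 5.73 and 6.98 with eGFP in pools 1, 2 and 3 and 5.51, 6.14 and 7.32 with QKItr. With MYBtr it read 4.44, 5.48 and 6.69, and with MYBQKI6 4.76, 4.82 and 6.21. MYBQKI5 gave 4.96, 6.01 and 6.19. Of the 9 MYB columns 8 were below eGFP of the same pool, the exception being MYBQKI5 in pool 2, and all 9 were below QKItr. The mean of the MYB constructs was 0.68 lower than eGFP (-0.68, SE 0.19, 95% interval -1.09 to -0.27, limma adjusted p = 0.048 with the block, 0.86 without). Against QKItr the difference was -0.82 (SE 0.19, limma adjusted p = 0.014 with the block). Singly, MYBQKI6 passed with the block (-0.92, SE 0.24, limma adjusted p = 0.040), while MYBtr at -0.65 (adjusted p = 0.15) and MYBQKI5 at -0.47 (adjusted p = 0.43) did not. All 15 Cdc25b probe sets were lower with the MYB constructs than with eGFP, by 0.25 to 1.01. Leaving out any of the 3 pools ended its call against eGFP, and without pool 2 its difference was -0.88 (limma adjusted p = 0.066).

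Markers of cell type moved in the same comparison. For the mean of the MYB constructs against eGFP, limma without the block called 1 of 5 astrocyte markers lower, Gfap (-1.26, adjusted p = 0.014), and 2 of 5 oligodendrocyte precursor markers lower, Cspg4 (-1.30, adjusted p = 0.0080) and Olig2 (-0.62, adjusted p = 0.021). Of 12 neural stem markers, Nes was lower (-1.04, limma adjusted p = 0.017) and Vim higher (0.46, adjusted p = 0.048), and of 5 oligodendrocyte markers Cnp was higher (0.87, adjusted p = 0.0058). With the block Aqp4, S100b, Olig1 and Hes1 were also called lower and Pdgfra higher, while none of the 8 neuron, 6 microglia and 6 vascular and fibroblast markers was called by limma in either fit, with 2, 0 and 0 at an unadjusted p under 0.05 with the block and 0 without it. The mean level of the 5 precursor markers was 8.13 to 8.27 in the eGFP columns and 7.49 to 7.83 in the MYB columns, that of the 5 astrocyte markers 5.08 to 5.65 and 4.48 to 5.21, and that of the 12 neural stem markers 8.35 to 8.45 and 8.03 to 8.46. The part of these markers in the Cks2 and Cdc25b differences was not tested.

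**Figure D3:**
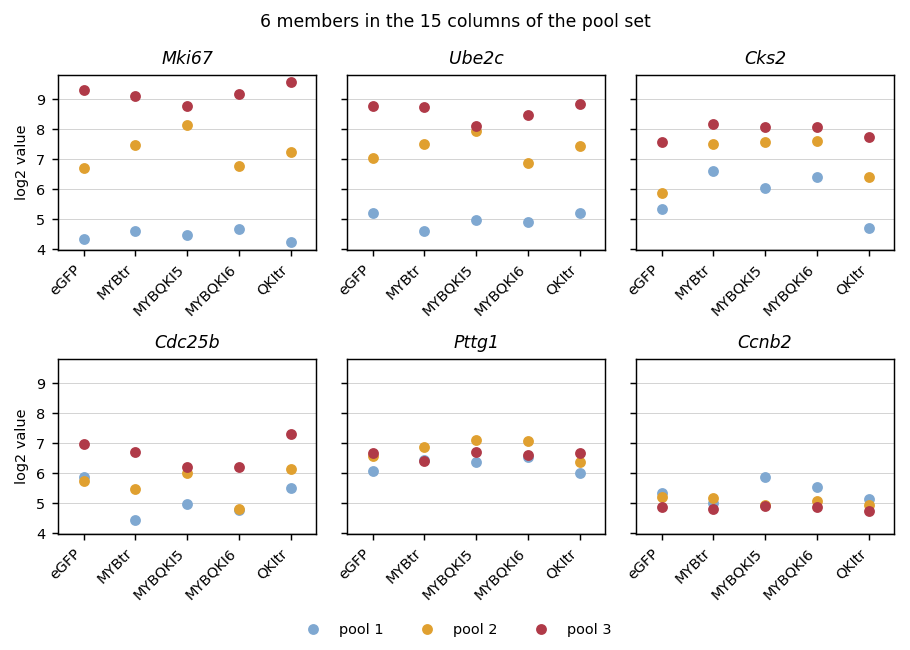
Log2 values of Mki67, Ube2c, Cks2, Cdc25b, Pttg1 and Ccnb2 (vertical axis) by construct (horizontal axis), 1 point per column, coloured by pool. Mki67 and Ube2c separate by pool with each construct; within each pool Cks2 is higher with the 3 MYB constructs than with eGFP and QKItr.

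In the other roles, the member with the smallest p for the mean of the MYB constructs against eGFP was not called in either fit. Cdca8, borealin, read 4.65, 5.31 and 6.69 with eGFP, 4.45, 5.61 and 6.85 with QKItr, 5.15, 6.15 and 6.66 with MYBtr, 4.89, 6.13 and 6.54 with MYBQKI5 and 5.09, 5.75 and 6.45 with MYBQKI6 in pools 1, 2 and 3. The MYB columns were above eGFP in pools 1 and 2 and below it in pool 3, and the mean difference was 0.32 (SE 0.16, limma adjusted p = 0.32 with the block). Spc25 read 5.11, 5.17 and 5.94 with eGFP, 5.23, 5.41 and 5.94 with QKItr, 5.48, 5.35 and 6.01 with MYBtr, 5.35, 5.61 and 5.75 with MYBQKI5 and 5.22, 5.25 and 6.04 with MYBQKI6. Its MYB columns were above eGFP except for MYBQKI5 in pool 3, by 0.16 on the mean (SE 0.10, limma adjusted p = 0.53). Bub1b read 4.03, 4.80 and 6.89 with eGFP, 4.18, 5.12 and 7.01 with QKItr, 3.97, 5.28 and 6.98 with MYBtr, 4.23, 5.86 and 6.49 with MYBQKI5 and 3.94, 4.43 and 6.59 with MYBQKI6. It went both ways, by 0.071 on the mean (SE 0.18, limma adjusted p = 0.94).

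Pttg1, securin, read 6.06, 6.57 and 6.68 with eGFP, 6.00, 6.37 and 6.68 with QKItr, 6.44, 6.86 and 6.41 with MYBtr, 6.38, 7.11 and 6.70 with MYBQKI5 and 6.52, 7.07 and 6.60 with MYBQKI6. In pools 1 and 2 all MYB columns were above eGFP and QKItr, and in pool 3 only MYBQKI5 was, with 6.70 against 6.68 (mean difference 0.24, SE 0.13, limma adjusted p = 0.37 with the block). The 2 eGFP arrays of pool 1 read 5.71 and 6.41, the widest gap between repeats of any member, and the higher one was above MYBQKI5 of that pool. Anln, anillin, read 5.73, 6.54 and 8.02 with eGFP, 5.64, 6.82 and 8.33 with QKItr, 6.20, 7.82 and 8.45 with MYBtr, 5.71, 7.70 and 8.04 with MYBQKI5 and 6.24, 7.21 and 8.37 with MYBQKI6. Of its 9 MYB columns 8 were above eGFP of the same pool, by 0.54 on the mean (SE 0.17, limma adjusted p = 0.078). Smc4, the condensin subunit, read 6.93, 7.52 and 8.00 with eGFP, 6.67, 7.60 and 8.08 with QKItr, 7.17, 8.02 and 8.03 with MYBtr, 6.85, 7.83 and 8.05 with MYBQKI5 and 7.16, 7.75 and 7.81 with MYBQKI6. Its groups overlapped (0.15, SE 0.11, limma adjusted p = 0.62).

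Within pools, the members' distance from eGFP changed from pool to pool. In pool 2, the numbers of 38 above eGFP were 36 for MYBtr, 37 for MYBQKI5, 28 for MYBQKI6 and 35 for QKItr, with medians of 0.55, 0.89, 0.098 and 0.32. In pool 3 the numbers above eGFP were 13, 5, 5 and 32, with medians of -0.047, -0.40, -0.19 and 0.20. In pool 1 they were 24, 22, 22 and 13, with medians of 0.13, 0.10, 0.14 and -0.068. The pool 2 gaps rest on the same eGFP value for every construct, and the 2 eGFP arrays of a pool differed by a median of 0.134, 0.0817 and 0.0894 per member in pools 1, 2 and 3. Over all genes 47.5% to 48.5% were above eGFP in pool 2. Each pool had 1 column per other construct, so no test could be made within a pool.

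**Figure D4:**
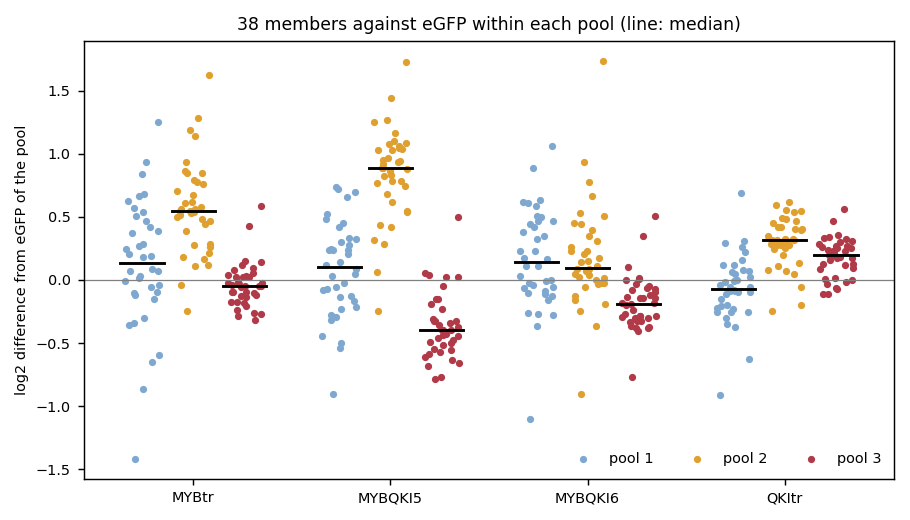
Difference of each member from eGFP of the same pool (vertical axis, log2; 1 point per member, black line the median) for MYBtr, MYBQKI5, MYBQKI6 and QKItr, coloured by pool. Most points lie above 0 in pool 2; in pool 3 most lie below 0 for the MYB constructs and above 0 for QKItr.

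Direction was the same in all 3 pools for a number of members that varied by construct. With MYBtr 11 of 38 were above eGFP in each pool and 2, Ccnb2 and Cdc25b, below it, where 18.7% and 20.7% of all genes were. MYBQKI5 gave 2 above (Cks2 and Pttg1) and 0 below, where 15.6% and 18.5% of all genes were above and below. For MYBQKI6 there were 4 above (Cdk1, Cks2, Spc25 and Anln) and 6 below (Cdc25b, Bub1b, Ttk, Ube2c, Dlgap5 and Ncapd2), against 17.9% and 19.4%. QKItr gave 11 above and 1 below (Ccnb2), against 13.9% and 17.5%. Cks2 was above eGFP in every pool with each of the 3 MYB constructs.

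For the mean of the MYB constructs against eGFP, other lists around the cell cycle are set beside the 2% of all genes called without the block and 7.07% with it. With the block, calls numbered 3 of 23 regulators, 3 of 10 G1 cyclins and kinases, 4 of 16 brakes, 2 of 62 other G2 and M genes and 0 of 43 S phase genes. Without the block, limma called 1 of 23 regulators higher, Tfdp2, a partner of E2F factors (0.64, SE 0.094, adjusted p = 0.0034), and 1 lower, E2f3, an activating E2F (-0.43, SE 0.099, adjusted p = 0.038). With the block Mybl1 was also called (0.39, SE 0.10, limma adjusted p = 0.029). Of 10 G1 cyclins and kinases, Cdk6, a D-cyclin kinase, rose by 1.89 (SE 0.19, limma adjusted p = 0.00014) and Ccnd3, a D-type cyclin, fell by 0.52 (SE 0.11, adjusted p = 0.024). With the block Cdkn2b, an inhibitor of the D-cyclin kinases, was called too (0.47, SE 0.13, limma adjusted p = 0.0496). None of 43 S phase genes was called by limma with or without the block, and 0 and 3 had an unadjusted p under 0.05. Of 62 other G2 and M genes, 0 were called without the block and 1 had an unadjusted p under 0.05. With it, Ckap2l, a spindle protein, rose by 1.07 (SE 0.28, limma adjusted p = 0.029) and Cdc25a, a phosphatase of S phase entry, fell by 0.49 (SE 0.11, adjusted p = 0.013). Of 16 brakes, none passed limma without the block, with 4 at an unadjusted p under 0.05. With it, Wee1, the kinase that inhibits Cdk1, rose by 0.95 (SE 0.22, limma adjusted p = 0.016), as did Gadd45a (0.74) and Cdkn1b (0.42), and Btg2 fell by 0.58.

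The suppression set asked what loss of Qk does in cells with MYBQKI6, and no member passed (limma with the last title number as a block), where 0.00432% of all genes, 1 gene, were called. Without that block the share was again 0.00432%, with 0 members called. With the block, 3 of 38 members had an unadjusted p under 0.05, where 7.49% of all genes did, and without it 0 had, where 4.09% did. The median member difference of Qk from LacZ suppression was 0.17, with 33 of 38 above 0, against 0.031 over all genes. Without the block the median was -0.020, with 17 above 0. Qk itself read 9.35, 9.30, 9.46, 9.70 and 9.58 in Qk 5_2, Qk 6_1, Qk 6_3, Qk 9_1 and Qk 9_3 and 9.68, 9.70 and 9.74 in LacZ 1, LacZ 2 and LacZ 3. The target was thus only 0.24 lower (-0.24, SE 0.15, limma adjusted p = 0.73) and Qk 9_1 was level with the controls, so these libraries are the ones labelled Qk suppressed and the values do not show how far suppression went.

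What set the suppression samples apart was the last title number. Members were higher in the samples numbered 2 than in those numbered 1 and 3, at least 2-fold in 34 of 38 (1.58% of all genes), with a median of 1.42. The median was 1.43 in the Qk arm and 1.43 in the LacZ arm, and 36 members were highest with number 2 in both arms (14.8% of all genes). The widest gap was in Birc5, at 2.30, and the 4 members under 2-fold were Ccnb2 (0.38), Pttg1 (0.17), Cdc25b (0.81) and Smc4 (0.84). The Qk arm has 1 sample with number 2 and 4 with the others, and the LacZ arm 1 and 2. The mean member level was 7.95 in Qk 5_2 and 7.77 in LacZ 2 but lay between 6.11 and 6.95 in the other 6, while the neural stem markers lay between 7.67 and 8.06 in all 8. Qk 5_2 is also the only sample with a leading 5, which cannot be told apart from its number 2 within the Qk arm.

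Among entry genes, Cdc25c read 7.62, 6.01, 6.60, 5.85 and 6.14 in Qk 5_2, Qk 6_1, Qk 6_3, Qk 9_1 and Qk 9_3 and 5.47, 7.32 and 5.78 in LacZ 1, LacZ 2 and LacZ 3. Each Qk sample was above the LacZ sample of its number, by 0.46 on the fit (SE 0.15, limma adjusted p = 0.61), while the groups overlapped. Cks2 read 7.79, 6.13, 7.06, 6.12 and 6.58 against 6.02, 7.80 and 6.66, and Cdc25b 6.09, 5.06, 5.08, 5.62 and 5.28 against 5.28, 5.91 and 4.95. The 2 genes that passed in the pool set with its block differed by 0.092 (limma adjusted p = 0.90) and 0.15 (adjusted p = 0.84) here.

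Incenp, the passenger scaffold, read 7.43, 6.38, 6.44, 6.02 and 6.33 with Qk and 5.57, 7.10 and 5.91 with LacZ suppression, in the same order. It had the smallest p of the members (0.49, SE 0.15, limma adjusted p = 0.57), and again every Qk sample was above its same-numbered control. Ect2, the exchange factor of cytokinesis, read 9.29, 7.17, 8.26, 7.43 and 7.44 against 6.63, 8.79 and 7.60. It was above its control in 4 of 5 samples (0.47, SE 0.19, limma adjusted p = 0.62). Ndc80, of the kinetochore, read 8.72, 6.98, 8.41, 6.50 and 7.21 against 6.22, 8.57 and 7.34 (0.40, SE 0.24, limma adjusted p = 0.72).

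Bub1b, of the checkpoint, read 7.86, 5.82, 6.60, 5.59 and 5.85 against 5.39, 7.48 and 6.22 (0.22, SE 0.19, limma adjusted p = 0.79). Ube2c, the ubiquitin-conjugating enzyme, read 9.26, 7.46, 8.04, 7.50 and 7.34 against 7.20, 8.85 and 7.36 (0.33, SE 0.17, limma adjusted p = 0.68). Smc4 read 8.22, 7.18, 7.86, 7.31 and 7.09 against 7.08, 7.94 and 7.17 (0.24, SE 0.18, limma adjusted p = 0.76). In each of these genes Qk 5_2 and LacZ 2 were the 2 highest samples and the arms overlapped.

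**Figure D5:**
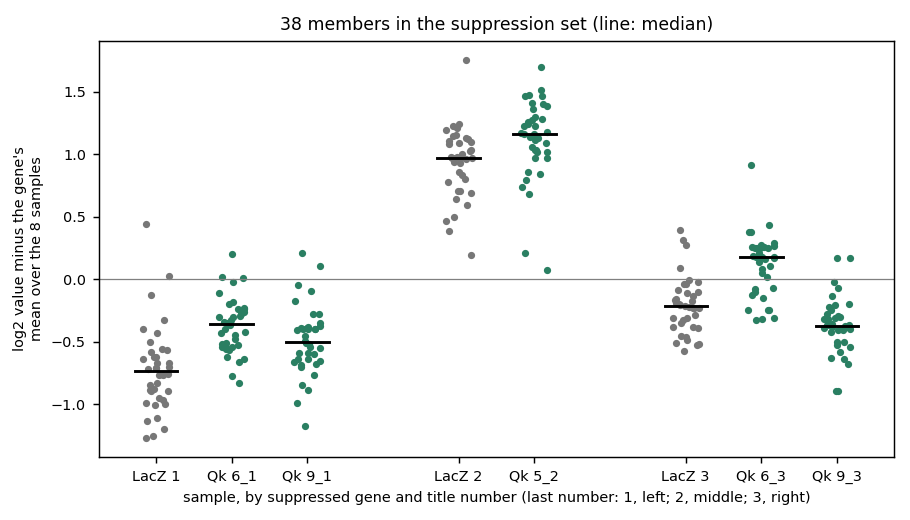
Log2 value of each member minus its mean over the 8 samples (vertical axis; 1 point per member, black line the median) in the LacZ (grey) and Qk (green) suppressed samples, ordered by the last title number. LacZ 2 and Qk 5_2 stand highest, and 36 of the 38 members are highest with number 2 in both arms.

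Set against the LacZ sample of the same number, 31 members were higher in Qk 5_2, 32 in Qk 6_1, 33 in Qk 6_3 and 32 in Qk 9_1, with medians of 0.19, 0.38, 0.38 and 0.25. Qk 9_3 went the other way, with 9 higher and a median of -0.14. At all 3 numbers 21 members were higher with Qk suppression, and 17.7% of all genes were. By role the fitted medians ran from 0.015 for the 3 checkpoint genes to 0.32 for the 8 spindle and cytokinesis genes, of which 7 were above 0, and no role had a called gene. All 6 kinetochore genes were above 0 with a median of 0.15 (without the block 1 of 6, median -0.077).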

How the data were processed

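Total RNA of 26 samples was hybridized to Affymetrix arrays, 1 per sample, per the labels. The deposited values are taken as log2 from their range of 0.22 to 14.6. Their normalization, software and build are not given in the sources used here. The pool set (array medians 5.61 to 5.74) and the suppression set (5.39 to 5.51) look normalized apart, so no comparison crossed them.

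Of 269751 probe sets, 233753 name 1 gene, 5106 several and 30892 none. A gene's value is the mean over probe sets that name it alone. Of 23152 symbols, 20875 were current, 2187 were updated through RefSeq and 90 were kept as in the file. Symbols are those of the array's annotation and can be old, and probe sets of different genes were not compared in level. The array's number of samples limits the precision.

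Comparisons used limma 3.58.1 (lmFit, contrasts.fit and eBayes) in R 4.3.3 on all genes, with Benjamini-Hochberg adjustment and a threshold of 0.05, after tests on simulated data. All 5 construct groups entered 1 fit without a block, since the labels state no design, with pool as a block as the alternative. Only the fit with the block uses the pairing of columns by pool. The fit without it leaves the spread between pools in its error, so an absent call there does not show an absent change. The suppression set was fitted with the last title number as a block. Same-numbered columns deviated together, in 30 of 30 pairs of the pool set (r 0.31 to 0.72, across genes) and 5 of 5 pairs of the suppression set (r 0.22 to 0.57), so the numbers were taken to pair the samples. Differences between pools and between numbers are descriptions. Values were plotted with Python and matplotlib.

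All members are named by role. Per-sample values are given for members called on all samples, with or without the block. Otherwise they are given for the member of each role with the smallest unadjusted p, for the mean of the MYB constructs and for Qk suppression. Members called only when a pool was left out (Aurka, Nek2 and Prc1) are not given so. Mki67 was added after its values were seen. Up to 4 called genes are named from each other list. Members, lists and tests were chosen with earlier results of these data known.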

Additional observations from a re-analysis of the deposited data

Results flagged for a closer look

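In 4 of the 38 members, sample Qk 5_2 stood far above the other 4 Qk suppressed samples. Its gap to the nearest sample was 0.764 of the range of the 5 samples for Nek2, 0.77 for Birc5, 0.911 for Cenpa and 0.762 for Bub1. Chance gives such a gap in about 1 in 20 groups of like samples. Qk 5_2 is the only Qk sample numbered 2, and LacZ 2 was high as well. Number 2 was highest in both arms in 36 members, so the high value is not particular to these 4. Aurkb (0.701) and Incenp (0.696) lay just under the cut of 0.71. The 5 samples are thus not alike and the members moved together, so the count cannot be set against that rate. The share of all genes with such a gap is not given here.

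The members' median difference from eGFP had opposite signs in pools 2 and 3 for each MYB construct. It was 0.548 in pool 2 and -0.0472 in pool 3 for MYBtr, 0.885 and -0.4 for MYBQKI5, and 0.0978 and -0.188 for MYBQKI6. The difference between pools was not tested, since a pool holds 1 column of each construct. Of the members, 15 were above eGFP with all 3 MYB constructs in pool 2 and below it with all 3 in pool 3, a pattern seen in 3.49% of all genes.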

How the results depend on the processing

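With the pool as a replicate block the members called were 1 for MYBtr, 2 for MYBQKI6, 2 for the mean of the MYB constructs against eGFP and 2 for that mean against QKItr, where 0 were called without it; the block changed no other call. Leaving out a pool under the block was chosen after seeing the data. Without pool 1 it left 1 call for the mean against eGFP (Cks2). Without pool 3 it gave 3 for MYBtr (Aurka, Cks2 and Nek2), 1 for MYBQKI5 (Aurka), 2 for MYBQKI6 (Aurka and Cks2), 4 for the mean against eGFP (Aurka, Cks2, Nek2 and Prc1) and 3 for the mean against QKItr (Aurka, Cks2 and Pttg1), and without pool 2 it gave 0 in all of them; the cause was not tested. For Qk suppression the median without the replicate block was -0.020 (number 2 is 1 of 3 LacZ and 1 of 5 Qk samples). Leaving out each replicate in turn unbalances the pools, and the medians then ran from -0.44 to 1.02 for MYBtr, -0.44 to 0.96 for MYBQKI5, -0.60 to 0.81 for MYBQKI6, -0.62 to 0.89 for QKItr, -0.52 to 0.92 for the mean against eGFP and -0.73 to 0.74 for the mean against QKItr. They ran from -0.68 to 0.59 for MYBQKI5 against MYBtr, -0.81 to 0.37 for MYBQKI6 against MYBtr, -0.75 to 0.35 for MYBQKI6 against MYBQKI5 and 0.13 to 0.28 for Qk suppression, with no member called by limma in any of these. In all, 399 counts and medians kept their value within the spread and 41 did not. That spread was wide: for MYBQKI5 against eGFP the SD of the median over pools was 0.65, for a median of 0.17. A median could thus change sign and still count as kept. For MYBQKI5 20 of 22 settings counted as kept, while 17 gave a positive median. Of the single-gene results 211 kept their side of the threshold and 12 passed it, all with the pool block. The other settings were the probe set with the highest mean, the median of probe sets, dim probe sets left out, probe sets of several genes, quantile normalization again, eBayes with trend and robust options, only the groups compared and 1 eGFP array per pool; leaving out the samples numbered 2 and counting same-valued Cks2 probe sets once were added after seeing the data.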
